A study of Zea mays with 6 samples.

Results

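Tubulins, kinesins, actins and the proteins that bind them were compared between maize ovaries with incompletely fused carpels (*ifc*) and normal (WT) ovaries. Members were the rows of the deposited gene expression table that carry no transcription factor family and that name a tubulin, a kinesin, an actin, a profilin, a villin, a formin, a katanin or an actin-depolymerizing factor in the description, or whose best *Arabidopsis* match has a tubulin, actin, MAP65, actin-depolymerizing factor, profilin, formin or kinesin (ATK) symbol. Of 25368 rows, 114 met this rule, 36 by the description alone, 47 by the symbol alone and 31 by both. Of these, 6 encode other proteins that share a word or a symbol with the list, namely a UDP-forming glucan-protein synthase, an outer membrane channel protein of chloroplasts, a glycerol-3-phosphate acyltransferase, an alanine-tRNA ligase and a pair of proteins of the actin-like ATPase fold. Their *ifc* to WT ratios ran from 0.853 to 1.201, and they were set aside. The remaining 108 genes comprise 9 alpha-tubulins, 17 beta-tubulins, 7 gamma-tubulins and tubulin-associated proteins, 9 MAP65 proteins, 16 kinesins, 1 kinesin light chain, 16 actins, 2 profilins, 9 actin-depolymerizing factors, 16 formins, 1 villin and 5 other actin-binding proteins. No katanin was among them.

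Plant cells carry microtubules, hollow polymers of alpha- and beta-tubulin, and actin filaments, polymers of actin. Cortical microtubules guide the deposition of cellulose and so the direction of growth, while the preprophase band, the spindle and the phragmoplast place and build the new wall in division. Actin filaments carry vesicles and organelles on myosin motors, and their turnover is set by profilin, which binds actin monomers, by actin-depolymerizing factors, which sever filaments, and by formins and the ARP2/3 complex, which start new ones.

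Ovaries of the inbred line Yu-A474 were taken from unpollinated ears, bagged ahead of silking, at the stage when the carpel defect of *ifc* ovaries could first be seen. The groups are 3 libraries of ovaries labelled wild type and 3 libraries of ovaries labelled IFC mutant, and normal and *ifc* ovaries stood next to each other in the middle of the same ear. The study took the trait to be recessive and partially penetrant, and the groups are ovary phenotypes on shared ears of 1 line rather than plants of different genotype. The labels give no treatment of either group.

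Expression is given as FPKM, sequenced fragments scaled by transcript length and, with the authors' quartile normalization, by library size. Levels of different genes can thus be set side by side. The table holds 1 FPKM per phenotype, pooled by the authors over the libraries, so no value below has a replicate error, no test was run, and "higher" and "lower" describe these pooled libraries only. It gives no counts, so the number of reads behind each gene is unknown. The study lists fewer mapped reads for each *ifc* library than for the WT library of the same number. The pooled *ifc* values thus rest on fewer reads in all. A gene is termed called where the FPKM is above 2 in *ifc* or WT and the fold difference is above 1.5, which are the fold and FPKM limits of the study without its p-value. Log2 ratios are those of FPKM + 1, *ifc* minus WT, which understates the difference of weakly expressed genes.

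The tissue label was checked against marker genes. The 18 rows matching regulators of carpels, ovules and other floral organs (8 of 10 symbols found) had a median of 181 FPKM in WT and 162 in *ifc*. They summed to 3986 and 3580.0, the highest being a SEP3 match at 754 and 695. Of these, 17 were lower in *ifc*, all within 1.5-fold. The anther and tapetum markers found, 2 of 5, were near 0, with an AMS match at 0.119 FPKM in WT and 0.452 in *ifc* and a MYB103 match at 0.674 and 0.670. The green tissue markers found, 2 of 7, were at 17.5 to 21.9 FPKM in WT and 14.5 to 24.9 in *ifc*, and no row for a zein storage protein was found. A scaling to equal totals would turn on 1 row, GRMZM2G070931, which took 55.6% of the WT total and has an *ifc* value of 0. The authors' quartile normalization is not a scaling to equal totals. Equal totals for the phenotypes would move the log2 of every FPKM ratio by 1.13 and make all 98 members above 2 FPKM higher in *ifc*, whereas equal totals without that row would move it by -0.05. All directions below are relative to the authors' scaling, and each member or listed gene above 2 FPKM that was lower in *ifc* turns under the first of these.

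The cytoskeletal genes as a whole stood at nearly the same level in both phenotypes. Their FPKM summed to 13697 in WT and 13556 in *ifc*, a ratio of 0.990. Above 2 FPKM there were 98 of the 108, of which 43 were higher (43.9%) and 55 lower in *ifc*, beside 45.9% higher of all 21093 rows above that level. The median log2 ratio was -0.04, beside -0.02 over all such rows. The members within 1.2-fold of WT were 74 of 98 (75.5%), beside 71.2% of all such rows. Called higher in *ifc* were 3 members, beside 4.13% of all rows, and called lower were 2, beside 2.55%. In both directions together 5.10% of the members were called, beside 6.68% of all rows, a share near that of the whole table. The 3 called higher were an alpha-tubulin, a beta-tubulin and a profilin, and the 2 called lower were both actin-depolymerizing factors of low level. At a 1.3-fold limit 8 members were higher, beside 8.56% of all rows, and 9 lower, beside 7.32%, and at a 2-fold limit none was called, beside 2.04%. By level, 2 of 24 members at 100 FPKM or more were called (8.33%), beside 7.04% of all such rows.

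**Figure D1:**
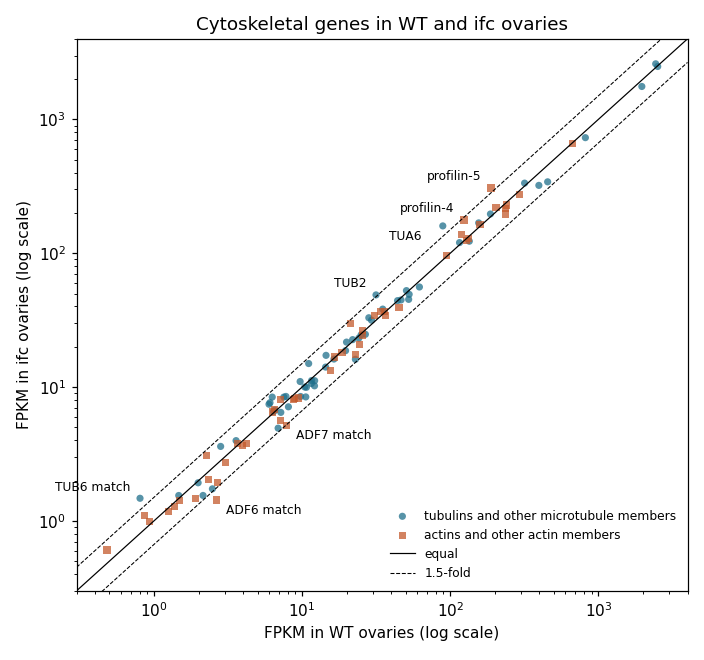
FPKM of the 108 cytoskeletal genes in WT (x axis) and *ifc* ovaries (y axis), both on log scales, 1 point per gene, with circles for microtubule genes and squares for actin genes. The solid line marks equal levels and the dashed lines 1.5-fold; TUA6, TUB2 and profilin-5 lie above the upper line and the ADF6 and ADF7 matches below the lower one, while the TUB6 match at the lower left stays under 2 FPKM in both phenotypes.

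Alpha-tubulin is the subunit exposed at the minus end of the microtubule. Its transcripts were the most abundant of all types, summing to 7249 FPKM in WT and 7256 in *ifc*, a ratio of 1.00. The 3 leading genes held 95.5% of that sum in WT and 94.5% in *ifc*. The gene of the tubulin alpha-3 chain (AC195340.3_FG001, chr5:5434730-5437116, B73 RefGen_v3 as for all positions) was at 2439.8 FPKM in WT and 2604 in *ifc*. GRMZM2G153292, which RefSeq pairs with both TUA1 and TUA2, was at 2517 and 2487. TUA4 (GRMZM2G152466) was at 1967 in WT and 1763 in *ifc*. One leading gene was thus slightly higher and the other two slightly lower, and all 3 have the same best match in *Arabidopsis*.

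The alpha-tubulin that differed most was a minor one, TUA6 (GRMZM2G083243, chr7:160071799-160075599, plus strand). It was at 89.1 FPKM in WT and 160.0 in *ifc*, 1.80-fold higher, the largest log2 ratio of all 98 members (0.84). Its share of the summed alpha-tubulin FPKM was 1.23% in WT and 2.21% in *ifc*. Its near relative TUA5 (GRMZM2G099167), with the same *Arabidopsis* match, was at 187 and 197 FPKM, 1.05-fold. The third gene of that match, GRMZM2G051782, was at 12.1 in WT and 10.2 in *ifc*, so the genes of this match did not move alike. At the other end stood GRMZM2G407869, a TUA3 match of low level, at 2.14 FPKM in WT and 1.55 in *ifc* (log2 ratio -0.30). The tubulin, actin and profilin genes include near-identical copies, and the authors' correction for multi-mapped reads shares such reads among them, so levels of single copies are less certain than the sums.

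Beta-tubulin, the partner that faces the growing end, summed to 2567 FPKM in WT and 2318 in *ifc*, a ratio of 0.903. The alpha to beta ratio of summed FPKM was 2.82 in WT and 3.13 in *ifc*. The lower sum came from the abundant genes. TUB6 (GRMZM2G071790, chr3:187499361-187503653) was at 818 FPKM in WT and 731 in *ifc*. GRMZM2G172932 was at 455 and 342, 1.33-fold lower, and the tubulin beta-7 chain gene GRMZM2G043822 at 397 and 322, 1.23-fold lower. These 3 made up 65.0% of the sum in WT and 60.2% in *ifc*, and none reached the fold limit. TUB5 (GRMZM2G133802) and TUB1 (GRMZM2G164696) were slightly higher in *ifc*, at 318 and 334 and at 156 and 169 FPKM. By number, 7 beta-tubulins above 2 FPKM were higher and 8 lower, with a median log2 ratio of -0.11.

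TUB2 (GRMZM2G334899, chr8:104292706-104296183, minus strand) was the beta-tubulin called higher in *ifc*. It was at 31.5 FPKM in WT and 48.8 in *ifc*, 1.55-fold, and its share of the beta-tubulin sum was 1.23% and 2.11%. It lay close to the limit, and with totals made equal without GRMZM2G070931 its fold was 1.4997 and the call was lost. TUB3 (GRMZM2G108766) was the lowest by log2 ratio (-0.48), with 22.9 FPKM in WT and 16.1 in *ifc*, 1.42-fold. GRMZM2G138920, a TUB6 match, had a ratio of 1.83 but only 0.805 FPKM in WT and 1.48 in *ifc*, below the 2 FPKM limit. Both called tubulins, TUA6 and TUB2, were thus minor isotypes, each near 2% of the summed FPKM of its type in *ifc*.

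**Figure D2:**
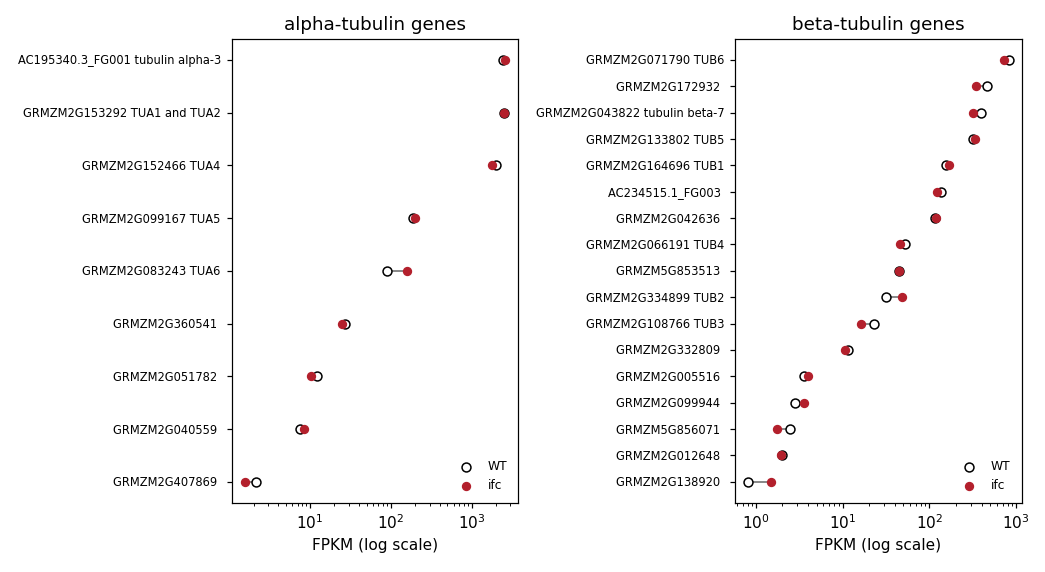
FPKM (x axis, log scale) of each alpha-tubulin gene (left) and beta-tubulin gene (right), 1 gene per line in order of mean FPKM, with open circles for WT and filled circles for *ifc*. The abundant genes shift either way in *ifc*, with GRMZM2G172932 1.33-fold lower. TUA6 moves from 89.1 to 160.0 FPKM and TUB2 from 31.5 to 48.8.

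Gamma-tubulin starts microtubules, and folding cofactors assemble the alpha-beta dimer. None of the 7 genes was called, beside 6.68% of all rows above 2 FPKM. Of the 7, 6 were lower in *ifc*, with a median log2 ratio of -0.05. Cofactor A (GRMZM2G143627, the KIESEL match) was the most abundant, at 62.0 FPKM in WT and 55.9 in *ifc*. Cofactor B (GRMZM2G127581) was at 46.5 and 44.8, and cofactor E (GRMZM2G060857, the PFIFFERLING match) at 24.2 and 23.2. The exception was gamma-tubulin 2 (GRMZM2G085970), at 11.1 FPKM in WT and 14.99 in *ifc*, 1.35-fold higher, whereas gamma-tubulin 1 (GRMZM2G073888) was at 10.42 and 10.01. The gamma-tubulin complex protein 4 gene (GRMZM2G008093) was at 16.4 and 16.2, so its level differed less than that of gamma-tubulin 2.

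MAP65 proteins crosslink antiparallel microtubules, and MAP65-3 does so in the *Arabidopsis* phragmoplast. The 9 genes summed to 207 FPKM in both phenotypes (ratio 0.997), and of the 8 above 2 FPKM 4 were higher and 4 lower. The most abundant by the mean of both phenotypes, the MAP65-2 match GRMZM2G465169, was at 50.6 FPKM in WT and 52.6 in *ifc*. The MAP65-3 matches GRMZM2G030284 and GRMZM2G106028 were at 35.0 and 38.2 and at 21.9 and 22.6 FPKM, the first having the highest log2 ratio of the type (0.12). The MAP65-8 match GRMZM2G114841 had the lowest (-0.41), at 6.89 FPKM in WT and 4.93 in *ifc*. Of the 8, this gene alone lay outside 1.2-fold.

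Kinesins are motors that move along microtubules, and the families differ in the direction they walk and in the array they serve. None of the 16 members, 2 of them counted as kinesins by description alone, was called, beside 6.68% of all rows above 2 FPKM. Of these, 10 were higher and 6 lower in *ifc*, with a median log2 ratio of 0.11 and a summed ratio of 1.06. The PAKRP1L match GRMZM2G034828, a kinesin-12 of the phragmoplast midzone, was the most abundant by the mean of both phenotypes, at 28.21 FPKM in WT and 32.96 in *ifc*. The kinesin-5 gene GRMZM2G320689, of the family that slides spindle microtubules apart, had the highest log2 ratio (0.37), at 6.29 and 8.41 FPKM. The lowest (-0.30) was the KCBP match GRMZM2G070273, a calmodulin-binding kinesin-14 named ZWICHEL for its trichome phenotype in *Arabidopsis*, at 10.6 in WT and 8.44 in *ifc*.

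The table held 45 further kinesins that the rule missed because their description does not name them, and they were added by *Arabidopsis* locus for comparison. None of these was called either, beside 6.68% of all rows above 2 FPKM. Of the 61 kinesins 56 were above that level, 32 of them higher and 24 lower in *ifc*. The counts were 26 and 30 with totals made equal without GRMZM2G070931. A group of kinesins was then set apart whose *Arabidopsis* relatives serve the spindle or the phragmoplast (kinesin-5, kinesin-10, kinesin-12, ATK5 and HINKEL). Kinesin-4, kinesin-6, kinesin-8 and the remaining kinesin-7 genes were counted with the others, whatever part their relatives have in division. Of 14 such genes 13 were higher in *ifc* (92.9%), beside 45.9% of all rows above 2 FPKM. Their median log2 ratio was 0.18, with folds up to 1.44. Of 40 other kinesins above 2 FPKM 19 were higher and 21 lower, with a median of -0.02. The 2 kinesin members whose locus gave no family were GRMZM2G117771, at 19.7 FPKM in WT and 18.7 in *ifc*, and GRMZM2G151962, at 8.08 and 7.12. They were counted as kinesins by description alone, since their *Arabidopsis* matches are not among the kinesin loci used. Both are in the totals of 56 and 61 but in neither group. The grouping is open to choice, since the KCBP and KCA1 matches, kinesin-14 proteins also known from division arrays, were counted with the others. All 3 (GRMZM2G070273, GRMZM2G423861 and GRMZM2G017257) were lower in *ifc*, and with them 13 of 17 were higher, with a median of 0.15. The 6 that are members were all higher, including POK1 (GRMZM2G300709), which marks the division site, at 5.98 FPKM in WT and 7.44 in *ifc*, and the HINKEL match GRMZM2G136838, needed for expansion of the cell plate, at 19.9 and 21.7. The ATK5 matches GRMZM2G436981 and GRMZM2G114861, kinesin-14 motors of the spindle, were at 14.5 and 17.3 FPKM (1.19-fold) and 1.13-fold higher from 9.70 FPKM. Among the kinesins outside the rule, the second PAKRP1L match GRMZM2G471186 differed most, at 12.47 in WT and 17.98 in *ifc*, and the kinesin-5 gene GRMZM2G024576 was the exception, at 31.2 and 31.1. With totals made equal without GRMZM2G070931, 12 of the 14 were higher. A shift of this size was not particular to these genes, since 163 of 193 cytosolic ribosomal protein genes above 2 FPKM were also higher in *ifc*, with a median log2 ratio of 0.17.

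**Figure D3:**
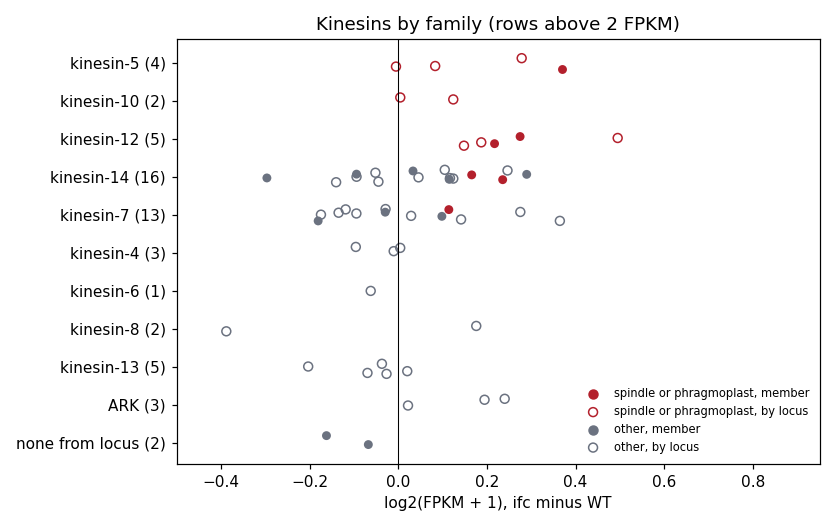
Log2 ratio of FPKM + 1, *ifc* minus WT (x axis), for the 56 kinesins above 2 FPKM by family (number of genes in brackets), 1 point per gene, filled for the 16 members and open for genes added by *Arabidopsis* locus, red for families or genes of the spindle and phragmoplast. Of the 14 red points 13 lie right of 0, and the grey points, which include the 2 kinesins of no assigned family, lie on both sides.

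By family, all 5 kinesin-12 genes were higher (summed FPKM 66.2 in WT and 80.5 in *ifc*), as were 3 of 4 kinesin-5 genes (58.1 and 63.0). The 16 kinesin-14 genes above 2 FPKM, minus-end motors, were 10 higher and 6 lower, and the 13 kinesin-7 genes 6 and 7. Kinesin-13 genes, whose *Arabidopsis* relative acts at Golgi bodies and in cell wall patterning, were 1 higher and 4 lower, with summed FPKM of 106 and 103. The kinesin-4 FRA1 match GRMZM2G026218, of a motor known for its part in cell wall formation, was at 33.9 FPKM in WT and 31.6 in *ifc*. The kinesin light chain gene GRMZM2G147377 was at 12.2 and 11.2.

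Actin genes were steady. The 16 actins summed to 1750.5 FPKM in WT and 1713 in *ifc*, a ratio of 0.979, and of the 12 above 2 FPKM 6 were higher and 6 lower. GRMZM2G067985, an ACT7 match on chr8:134054892-134065785, held 38.1% of the sum in WT and 38.6% in *ifc*, at 666 and 662 FPKM. ACT7 is the vegetative actin of *Arabidopsis* that responds to hormones, and 8 of the 12 maize genes match it. Among them the *ifc* to WT ratio ran from 0.826 in GRMZM2G126190 (238 FPKM in WT and 196 in *ifc*), the lowest of the type, to 1.41 in GRMZM2G082484 (21.3 and 30.0), the highest. The 3 matches of ACT11, a reproductive actin in *Arabidopsis*, were all higher, though the pair that was well expressed differed by 1.02-fold and 1.03-fold and the third, GRMZM2G017847, was at 2.25 and 3.10 FPKM. A pair of ACT7 matches on chromosome 6, GRMZM2G104017 and GRMZM2G110378, lie 42572 bases apart on the same strand and leaned in opposite directions, at 238 and 229 and at 204 and 221 FPKM.

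Both profilins were higher in *ifc*. Profilin-5 (GRMZM5G877388, chr9:19041803-19045538, minus strand) was at 189 FPKM in WT and 307 in *ifc*, 1.63-fold, and was called. Profilin-4 (GRMZM2G108780, chr6:74571329-74574201, plus strand) was at 124 and 177, 1.43-fold, just under the limit. Together they summed to 312 FPKM in WT and 485 in *ifc*, a ratio of 1.55, the highest of any type. Set against the nearly equal actin sums, the profilin to actin ratio of summed FPKM was 0.178 in WT and 0.283 in *ifc*. The profilin to actin-depolymerizing factor ratio was 0.325 and 0.519. Profilin-4 and profilin-5 of maize belong to the class expressed in vegetative tissue rather than in pollen, and which cells gave the difference was not tested. In whole ovaries, a difference in the number of cells of a type and a difference in RNA per cell cannot be told apart.

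Actin-depolymerizing factors were mostly lower in *ifc*. Of 9 genes 7 were lower in *ifc* (median log2 ratio -0.12), while the summed FPKM was 962 in WT and 934 in *ifc* (ratio 0.972). The leading gene, ADF3 (GRMZM2G060702, also known as ABP3), was at 295 FPKM in WT and 274 in *ifc*. The ADF4 matches GRMZM2G002825 and GRMZM2G037140 went apart, at 236 and 216 and at 119 and 138 FPKM, the latter with the highest log2 ratio of the type (0.21). The ADF5 match GRMZM2G077942 and the ADF6 match GRMZM2G130678 were within 1.2-fold, at 159 and 163 and at 133 and 129. The 5 abundant genes were thus close to WT.

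The 2 genes called lower were both weakly expressed. GRMZM2G064875, an ADF6 match on chr1:80062335-80093376 (minus strand), was at 2.64 FPKM in WT and 1.43 in *ifc*, 1.84-fold lower, the lowest log2 ratio of all members (-0.58). GRMZM2G463471, an ADF7 match on chr4:153295911-153297953 (minus strand), was at 7.86 FPKM in WT and 5.17 in *ifc*, 1.52-fold lower. With the median of all rows centred on 0 the fold of the latter was 1.497 and the call was lost. The second ADF7 match, GRMZM2G015127, was at 2.69 and 1.94, and the second ADF5 match, GRMZM2G147775, at 7.15 and 5.61. All 4 weakly expressed genes were therefore lower in *ifc*, by 1.27-fold to 1.84-fold. ADF7 is expressed in *Arabidopsis* pollen, and which cells gave the difference here was not tested. Among all rows with 2 to 10 FPKM, 9.96% were called, more than the 4.27% at 10 to 100 FPKM, and 2 of 31 members (6.45%) in that lower range and 1 of 43 (2.33%) in the middle one were called.

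Formins start and elongate unbranched actin filaments. None of the 16 was called, beside 6.68% of all rows above 2 FPKM. Of the 13 above that level 10 were lower in *ifc*, with a median log2 ratio of -0.11. The 16 summed to 143 FPKM in WT and 129 in *ifc* (ratio 0.905). The 5 matches of AFH1, a plasma membrane formin of *Arabidopsis*, included the 4 most abundant formins. GRMZM2G040965 was at 24.3 FPKM in WT and 20.9 in *ifc*, GRMZM2G022820 had the lowest ratio of the type, at 22.9 and 17.5 (1.31-fold lower), and AC155376.2_FG004 was at 16.5 and 16.8. Highest by log2 ratio (0.06) was the FH6 match GRMZM2G075921, at 6.49 and 6.78. With totals made equal without GRMZM2G070931, 1 of the 13 was higher (7.69%), beside 37.6% of all rows.

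The villin member GRMZM2G127115, a VLN1 match that bundles filaments, was at 6.33 FPKM in WT and 6.51 in *ifc*. Other villin matches fell outside the rule. VLN2 matches were at 66.2 and 61.9 (GRMZM2G047310), 31.3 and 29.1 (GRMZM2G180988) and 2.44 and 1.98 FPKM (GRMZM2G359566). The VLN4 match GRMZM5G836827 was at 21.3 and 25.7. They were in a list of 12 actin binding and bundling genes above 2 FPKM. Of that list 4 were higher in *ifc* (33.3%) and 8 lower, beside 45.9% higher of all rows. The 5 other actin-binding members were all within 1.2-fold. The most abundant was a calponin homology protein gene (GRMZM2G081380), at 30.8 FPKM in WT and 34.2 in *ifc*. By log2 ratio they ran from the ARP2/3 subunit ARPC1 match GRMZM2G178801 (-0.17), at 9.46 and 8.29 FPKM, to the gene of an actin associated protein, GRMZM5G815353 (0.16), at 7.14 and 8.10. The ARPC5 match GRMZM2G108976 was at 25.5 and 26.4, so the subunits of this nucleating complex did not lean one way.

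**Figure D4:**
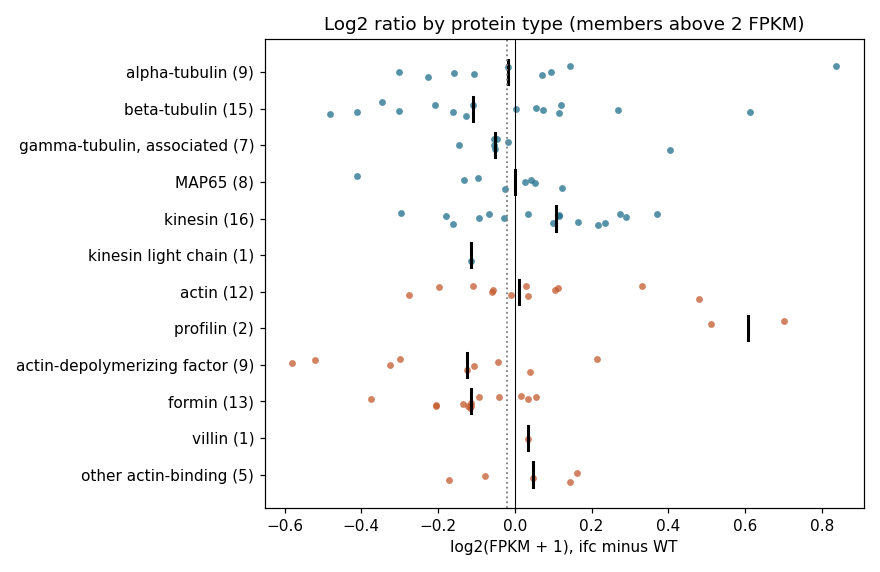
Log2 ratio of FPKM + 1, *ifc* minus WT (x axis), for the 98 members above 2 FPKM by protein type (number of genes in brackets), 1 point per gene, with black bars for the median of each type and a dotted line for the median of all 21093 rows (-0.02). Most points lie near 0, both profilins lie to the right (median 0.61), and actin-depolymerizing factors and formins lean left (medians -0.12 and -0.11).

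Apart from the profilins, type medians of the log2 ratio ran from -0.12 in actin-depolymerizing factors to 0.11 in kinesins, beside -0.02 over all rows above 2 FPKM. Microtubule genes together summed to a ratio of 0.977 and actin genes, with the profilins included, to 1.03. Of the other actin types, actins (0.979), actin-depolymerizing factors (0.972) and formins (0.905) summed below 1. The villin member (1.03) and the other actin-binding members (1.03) summed above 1. Genes with the same *Arabidopsis* match often differed from each other, as in the 6 TUB6 matches above 2 FPKM, whose ratios ran from 0.751 to 1.55, and the 7 TUB8 matches, from 0.704 to 1.28. The members lay on all 10 chromosomes, from 4 genes on chromosome 10 to 23 on chromosome 1. Of the 108, 95 carried a GO term, with 42 annotated to the microtubule, of 103 rows of the table with that term, and 22 to actin binding, of 47.

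Other genes of the cytoskeleton that the rule did not name were described from 7 lists of 162 rows in all, of which 146 were above 2 FPKM. Called higher were 3, beside 4.13% of all rows, and lower 2, beside 2.55%, and 66 were higher and 80 lower in *ifc*. Among 14 microtubule nucleation genes the EDE1 match GRMZM2G137009, a microtubule-binding protein first found in endosperm development, was called lower, at 9.15 FPKM in WT and 5.93 in *ifc*. The GIP1 matches, small subunits of the gamma-tubulin complex, were at 40.5 and 32.4 and at 43.5 and 35.6 FPKM, both below the fold limit. Of 25 microtubule-associated and plus-end genes above 2 FPKM, 0 were called, with 13 higher and 12 lower as deposited, and 9 and 16 with totals made equal without GRMZM2G070931.

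Upstream of actin, the SCAR complex activates ARP2/3, and ROP GTPases set where both act. Of 23 genes of these complexes above 2 FPKM 16 were lower and 7 higher (30.4%) in *ifc* (median log2 ratio -0.12). Of all rows above that level 45.9% were higher and 6.68% called. The ABIL1 match GRMZM2G002858, a SCAR complex subunit, was called lower, at 21.9 FPKM in WT and 13.4 in *ifc*, and the ABIL3 match GRMZM2G001981,GRMZM5G832362 was called higher, at 4.20 and 7.46. ROP GTPases and their regulators were lower in 26 of 31 rows and higher in 5 (16.1%), with a median of -0.15 and 0 called. The lowest was the ROP9 match GRMZM2G176217 at 43.20 FPKM in WT and 32.98 in *ifc*, 1.31-fold lower. Myosins, the actin motors, were higher in 12 of 14 (median 0.09). Called were 2 weakly expressed ones, beside 9.96% of all rows with 2 to 10 FPKM. The ATM2 match GRMZM2G086502 was at 1.07 FPKM in WT and 2.20 in *ifc*. The ATM1 match GRMZM2G139583 was at 4.45 and 6.82, 1.53-fold and so close to the limit. With totals made equal without GRMZM2G070931, 9 of 14 myosins were higher and 27 of 31 ROP genes lower.

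Genes of cytokinesis and of the cell cycle were set beside the division kinesins. Of 27 cytokinesis genes above 2 FPKM 19 were higher in *ifc* (70.4%), beside 45.9% of all rows. Their median log2 ratio was 0.08, and 0 were called, beside 6.68% of all rows. The KNOLLE matches, syntaxins of the cell plate, were at 24.7 and 30.1, at 38.8 and 43.5 and at 9.05 and 9.09 FPKM. Cyclins, their kinases and checkpoint genes were even, with 25 higher and 22 lower of 47 and a median of 0.01. With totals made equal without GRMZM2G070931, 19 of the 47 were higher. Called were 4 of the 47, beside 6.68% of all rows. Of these, 2 were called higher, the CKS2 match AC149818.2_FG004, a kinase-binding subunit, at 382 and 576 FPKM and the CYCB1;4 match GRMZM2G062453, a mitotic cyclin, at 2.71 and 4.49. The CKS2 match lay close to the limit, at 1.507-fold. Cell cycle genes called were 3 with totals made equal without GRMZM2G070931. Called lower were the CYCD3;2 match GRMZM2G107377, a G1 cyclin, at 18.5 and 11.5 and the Aurora kinase 3 match GRMZM2G107645 at 3.46 and 1.92.

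**Figure D5:**
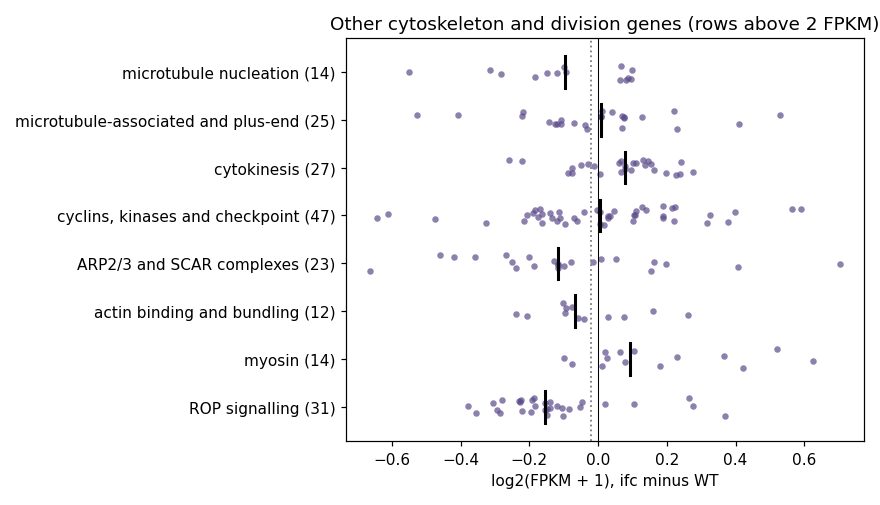
Log2 ratio of FPKM + 1, *ifc* minus WT (x axis), for rows above 2 FPKM in 7 lists of other cytoskeleton genes and 1 list of cell cycle genes (number of rows in brackets), 1 point per row, with black bars for list medians and a dotted line for the median of all rows. ROP signalling has the lowest median (-0.15) and myosins the highest (0.09), and every list spreads over both sides of 0.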

How the data were processed

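RNA was sequenced from 3 libraries of WT and 3 of *ifc* ovaries of maize. Per the labels and the study's methods, rRNA was removed, and strand-specific paired-end reads were trimmed with Trimmomatic, aligned to B73 RefGen_v3 with TopHat2 and restricted to exons with BEDTools. FPKM was computed by the authors with Cufflinks and Cuffdiff on reads pooled per phenotype, with quartile normalization and with corrections for fragment bias and for reads that map to several places, which shares such reads among near-identical genes. The deposited ratio (fold change) and log2 columns hold the authors' comparison of these FPKM, and the deposited p-value and q-value columns hold their Cuffdiff test. None of these comparison columns was used. No counts were at hand, so depth per gene is unknown and no interval was computed.

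Ratios, sums and medians of log2(FPKM + 1) were computed from the 25368 rows as deposited, without a test, since each phenotype has 1 pooled value. Called rows have an FPKM above 2 in a phenotype and a fold above 1.5. Descriptions were matched in any letter case. Names come from the table and, for 75 of the 114 rows, from RefSeq synonyms (Zm-B73-REFERENCE-NAM-5.0). Kinesin families and the other lists were assigned by *Arabidopsis* symbol or locus and cleaned by protein identity. The members and lists were chosen with earlier results of these data known. Named genes are all called members, the most abundant, highest and lowest member of each type, and up to 4 called genes per list by absolute log2 ratio. Other genes were named after their values were seen. In all, 43 alternatives were planned and 24 were added after seeing the data. The calling, median and sum steps were run on WT values with known folds planted without noise, a check of the code alone. Python 3.11.15, numpy 2.4.6, pandas 2.3.3 and matplotlib 3.10.9 were used.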

Additional observations from a re-analysis of the deposited data

How the results depend on the processing

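The limits are those of 1 pooled value per phenotype: no replicate could be left out and no error computed. No paired analysis was possible because the table has no column per library and no test was run. Of 201 recomputed values, 156 moved little (counts within 1.5 times, log2 values and ratios within 0.1 on the log2 scale). A fold of 1.3 called 8 members higher and 9 lower, with 17 other cytoskeleton genes and 8 cell cycle genes, and a fold of 2 called 0 and 0, with 1 and 0. Above 10 FPKM, 0 members were called lower, with 1 other cytoskeleton gene and 2 cell cycle genes, and without an FPKM minimum 7 cell cycle genes were called. With the median of all rows centred, 1 member was called lower. Without profilin-5 the summed profilin ratio was 1.43. Setting the same total FPKM, which turns on GRMZM2G070931, called 105 members higher (some of them raised above 2 FPKM by the scaling) and 0 lower, 153 other cytoskeleton genes and 47 cell cycle genes, and gave a member median of 1.04. The ADF6 and ADF7 matches GRMZM2G064875 and GRMZM2G463471 then turned to log2 ratios of 0.18 and 0.47. Type medians became 1.11 (alpha-tubulin), 0.99 (beta-tubulin), 1.04 (gamma-tubulin), 1.05 (MAP65), 1.18 (kinesin), 1.07 (actin), 1.00 (actin-depolymerizing factor), 0.86 (formin) and 1.14 (other actin-binding), and in the same order summed ratios became 2.18, 1.97, 2.11, 2.18, 2.31, 2.13, 2.12, 1.97 and 2.24, with 3.38 for profilins. The same total without that row called 2 members higher and 2 lower. The medians of MAP65 and actin, near 0 as deposited, then turned to -0.04 and -0.03. Those of the villin member (-0.004), all 56 kinesins (-0.02), the microtubule-associated genes (-0.04) and the cell cycle genes (-0.03) turned below 0 too. With the median of all rows centred, that of alpha-tubulin turned to 0.003 and that of the 40 other kinesins to 0.001. Matching the description in the case written, by description or symbol alone, with the rows set aside or with all kinesins left 3 called higher and 2 lower.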
